A study of Ovis aries with 24 samples.

Results

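Prostaglandin signalling was examined in 2 great vessels of sheep, the ductus arteriosus and the ascending aorta, through 9 genes, which carried 14 of the 15008 probes of the array. The genes were PTGS1 and PTGS2, PTGDS, the receptor genes PTGER1, PTGER2, PTGER3, PTGER4 and PTGFR, and SLCO2A1, and a probe was taken when the array's annotation named one of them, also under an older name such as COX-1, COX-2, EP or FP. The series compared vessels of fetal and newborn sheep (Ovis aries) on single-colour Agilent arrays. The 6 groups were ductus and aorta from preterm fetuses of 97 days of gestation, from near-term fetuses of 136 days and from newborn lambs of 12 hours, with term at 145 days. The titles round the fetal ages to 100 and 140 days. Each group held 4 arrays from 4 animals, so n = 4 for every member probe, and the animals carried no stated mutation or treatment. Whether a ductus and an aorta that bear 1 replicate number were taken from the same animal is not stated. RNA came from whole pieces of vessel, in which fewer cells of a type and less RNA per cell cannot be told apart.

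Prostaglandins are made from arachidonic acid. The cyclooxygenases PTGS1, which most tissues hold constantly, and PTGS2, which is induced by cytokines, growth factors and other stimuli, form the unstable intermediate PGH2, and terminal synthases such as PTGDS convert it into the single prostaglandins. Prostaglandin E2 acts through 4 receptors: PTGER2 and PTGER4 raise cyclic AMP and relax smooth muscle, PTGER3 lowers cyclic AMP, and PTGER1 acts through calcium. PTGFR is the receptor for prostaglandin F2 alpha, and the carrier SLCO2A1 takes prostaglandins from the blood into cells, after which they are broken down. In the fetus prostaglandin E2 keeps the ductus open, and inhibitors of cyclooxygenase are used to close it in preterm infants.

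Values below are log2 signals relative to the 75th percentile of the same array, so that 0 is the level of a probe at that percentile. The level of one probe cannot be set against that of another. A spot was counted as measured when the scanner software marked it as well above background. PTGS1, PTGDS, SLCO2A1 and 1 of the 2 PTGS2 probes were well above background on all 24 arrays. The second PTGS2 probe and 8 of the 9 receptor probes were so on 9 to 18 arrays, and a second PTGER2 probe (A_70_P041071) on 0 of 24, which left 13 member probes among the 13997 tested. Groups were compared in 1 limma fit of 6 group means, with calls at a Benjamini-Hochberg adjusted p under 0.05 over all tested probes. Errors after ± are standard errors of that fit unless marked SD.

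The 75th percentile of the signal was 322.1 to 1143 per array, and 66.2% to 94.4% of spots were well above background. The number of arrays limits the precision. Each stage occupied a single slide of 8 arrays, with the ductus in column 1 and the aorta in column 2. Stage and slide, and vessel and column, therefore cannot be told apart. The scanner files also give a detection limit for spiked-in RNA, without a stated unit. It lay above 1.5 on 12 arrays: 2 of preterm ductus, 2 of near-term ductus, 0 of newborn ductus, 3 of preterm aorta, 3 of near-term aorta and 2 of newborn aorta. The arrays not above 1.5 thus numbered 1 in preterm aorta and 1 in near-term aorta. Of 7 smooth muscle markers 1 was found by name, CNN1, and it was well above background on all 24 arrays. With outlier spots left out, its near-term aorta values came from 3 arrays.

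Cyclooxygenase genes, and no other member, passed the test, and they did so mainly in the newborn. Between newborn ductus and newborn aorta 2 of 13 member probes were called, both higher in the ductus (PTGS2 and PTGS1), where 10.1% of all tested probes were called. Between near-term and newborn ductus 1 of 13 was called, a rise of PTGS2, against 10.8% of all probes. Between preterm and near-term aorta 1 of 13 was called, a fall of PTGS1, against 0.493%. The change of PTGS2 at birth differed between the vessels, the 1 call among 13 where 0.393% of all probes were called. In the first 2 of these comparisons the members' share of calls is near that of all probes, so the counts show nothing particular to prostaglandin genes.

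In the other 5 comparisons 0 of 13 member probes were called by limma. All probes were called at 0.707% and 1.15% for ductus against aorta at the preterm and near-term stage, 0.314% for preterm to near-term ductus, 6.44% for near-term to newborn aorta and 0% for the difference between the vessels in the change from preterm to near term. At an unadjusted p under 0.05 these comparisons held 1, 2, 2, 0 and 0 member probes, against 11%, 7.87%, 11.3%, 19.9% and 1.6% of all probes. No other tool was run on them.

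**Figure D1:**
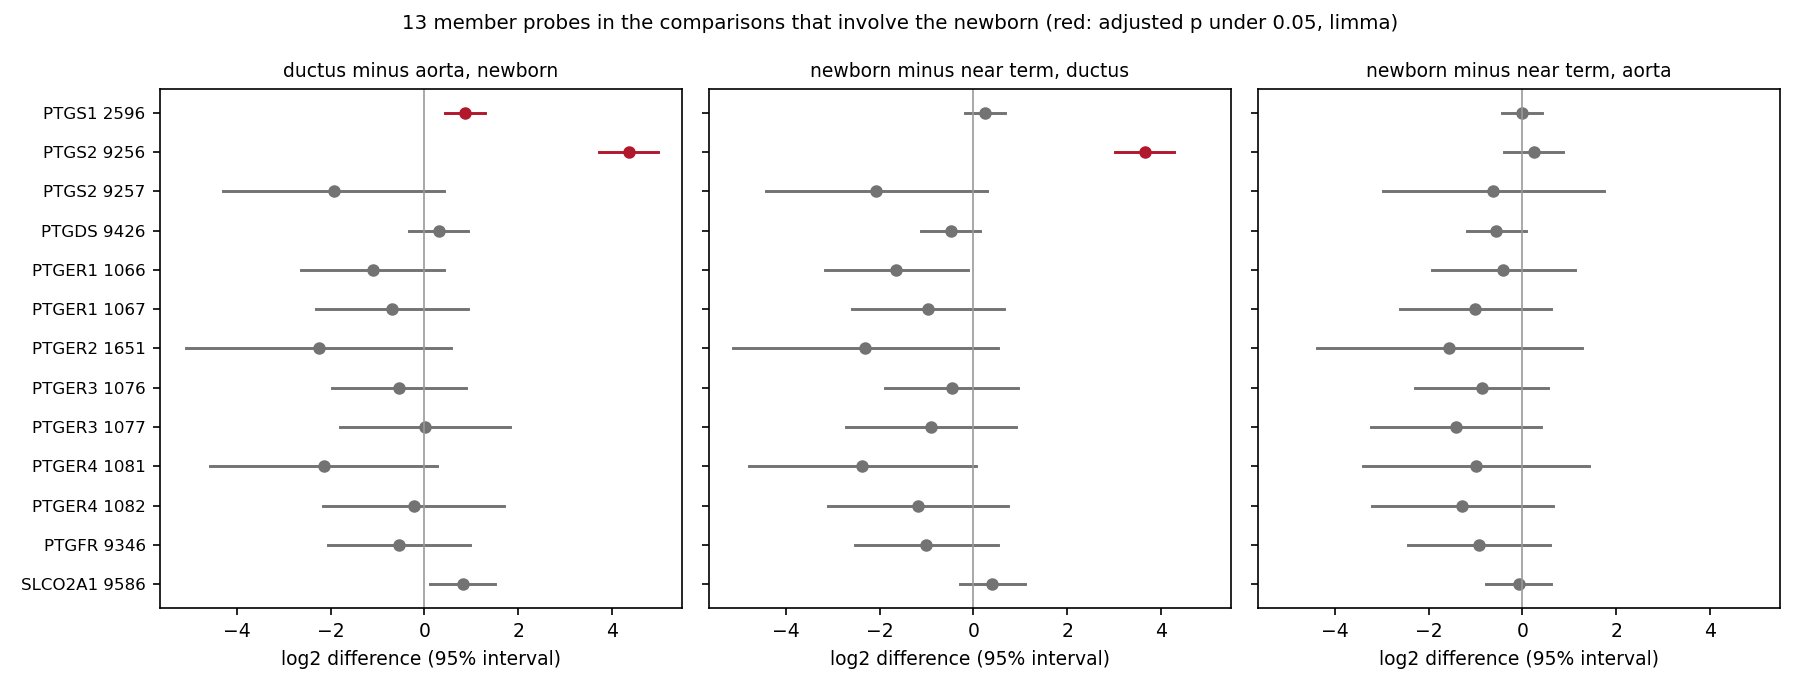
Log2 difference (x axis) of the 13 tested member probes (y axis, gene and last 4 digits of the probe name) for ductus minus aorta in newborns and for newborn minus near term in each vessel. Points are fitted differences, lines are 95% intervals, and red marks an adjusted p under 0.05. The brighter PTGS2 probe stood at 4.36 and 3.66 for newborn ductus minus aorta and for newborn minus near-term ductus, while the intervals of the receptor probes spanned several log2 units.

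PTGS2, the inducible cyclooxygenase, was far higher in the newborn ductus than in any other group. On its brighter probe (A_70_P039256) the 4 newborn ductus arrays read 2.29, 1.56, 1.74 and 2.11. The near-term ductus arrays read −1.58, −1.59, −2.25 and −1.503, and the preterm ductus arrays −1.95, −2.36, −1.81 and −1.40. All 4 newborn ductus arrays thus lay above all 20 others, with no overlap.

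The aorta showed no such step. Newborn aorta arrays read −2.54, −2.05, −1.99 and −3.16 for PTGS2. Near-term aorta arrays read −2.19, −2.98, −3.11 and −2.42, and preterm aorta arrays −2.74, −3.07, −3.57 and −2.47. The 3 aortic groups overlapped one another throughout.

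Between near-term and newborn ductus PTGS2 rose by 3.66 ± 0.30, or 12.6-fold (95% interval 8.16 to 19.5, adjusted p = 1.90e-07). In the aorta the same step was 0.24 ± 0.30 (interval −0.39 to 0.86, adjusted p = 0.671), and it lay below 0 with normexp background correction (−0.42) and on arrays with a detection limit not above 1.5 (−0.11). The difference between these 2 changes was 3.42 ± 0.42 (adjusted p = 0.000268), and with quantile normalisation it was 3.25 ± 0.83 and not called (adjusted p = 0.117). Over the other alternatives and with each array left out, the adjusted p of this difference was at most 0.0225.

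In newborns PTGS2 in the ductus exceeded that in the aorta by 4.36 ± 0.30 (1.92 ± 0.33 against −2.44 ± 0.54, SD), or 20.5-fold with a 95% interval of 13.3 to 31.7 (adjusted p = 2.44e-08). The exact two-sided permutation test of the 4 and 4 arrays gave p = 0.0286, the smallest such a test can give. Adjusted over the 21 such tests run on PTGS1 and PTGS2 it was 0.0858. The limma call held under every alternative and with each array left out. Values ran from 3.84 to 4.56 over the alternatives and from 4.12 to 4.51 with arrays left out. On the arrays with a detection limit not above 1.5 the difference was 4.22, and the rise in the ductus at birth 3.47.

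Before birth the ductus also read higher for PTGS2, without passing the test. The preterm difference was 1.08 ± 0.30 (interval 0.45 to 1.71, adjusted p = 0.124), and the ranges of the 2 vessels did not overlap. The near-term difference was 0.94 ± 0.30 (interval 0.31 to 1.57, adjusted p = 0.207), and the ranges met at near-term ductus replicate 3 and near-term aorta replicate 1. With normexp background correction the near-term value was 0.43, and on the arrays with a detection limit not above 1.5 the preterm value was 0.65. From preterm to near term PTGS2 differed by 0.15 ± 0.30 in the ductus (interval −0.48 to 0.78) and by 0.29 ± 0.30 in the aorta (interval −0.34 to 0.92). Quantile normalisation turned the sign of both (−0.13 and −0.10), and median centring that of the ductus (−0.11).

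In order of mean level the newborn ductus (1.92) was followed by near-term ductus (−1.73), preterm ductus (−1.88), newborn aorta (−2.44), near-term aorta (−2.67) and preterm aorta (−2.96). Of these neighbours in PTGS2 level only the first pair had ranges that did not overlap.

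**Figure D2:**
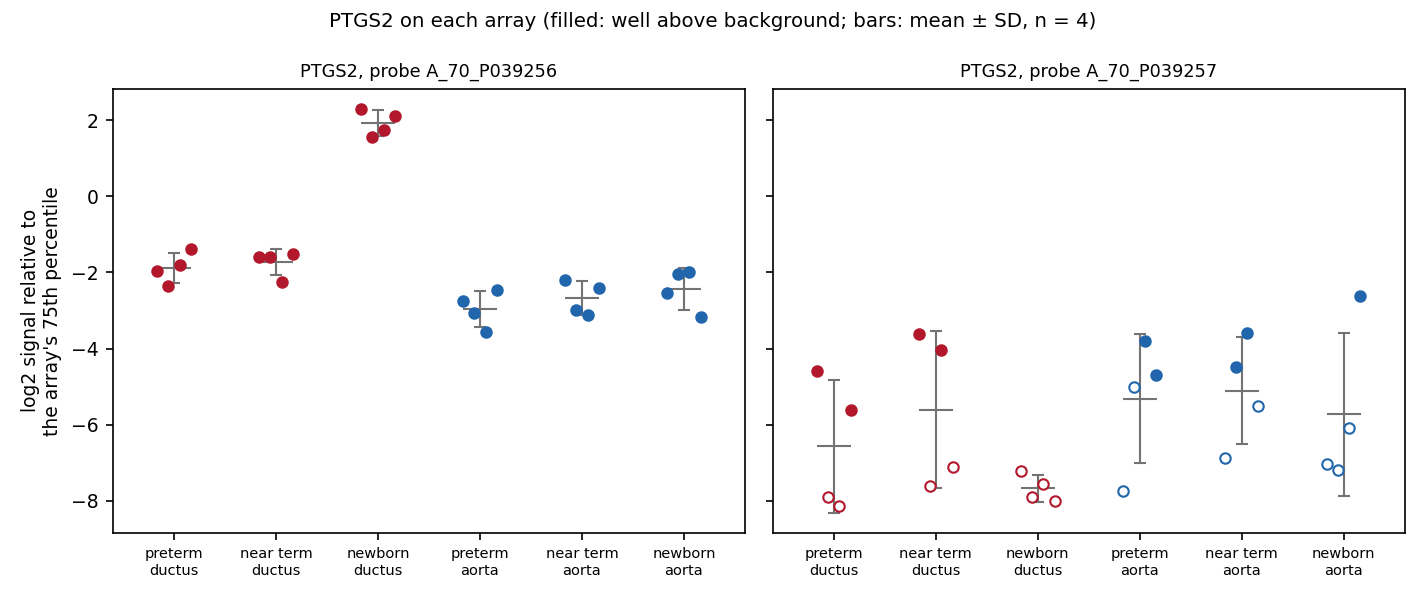
Log2 signal relative to the array's 75th percentile (y axis) for both PTGS2 probes in the 6 groups (x axis). Points are arrays, filled where the spot was well above background, and bars are mean ± SD (n = 4). On the first probe the newborn ductus arrays, at 1.56 to 2.29, stand above all others, and on the second they are all open symbols.

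The second PTGS2 probe (A_70_P039257) did not show this. It ran from −8.15 to −2.61 over the 24 arrays and was well above background on 9 of them. In newborn ductus it was so on 0 of 4 arrays, which read −7.22, −7.91, −7.56 and −8.00. In newborn aorta it was so on 1 of 4, which read −7.03, −7.20, −6.10 and −2.61. With 1 of these 8 readings above background the order of the arrays cannot be read, and no fold is given. The fitted difference was −1.94 ± 1.13 (interval −4.30 to 0.42, adjusted p = 0.244). No comparison called this probe. All 9 arrays that measured it had a detection limit above 1.5, and 0 of the 12 others did.

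Some markers of endothelium and macrophages moved with PTGS2 in these whole-vessel samples, and others on the same lists did not. Of 4 endothelial markers found by name among 7, SELP, an adhesion receptor of activated endothelium (2.68 ± 0.38, adjusted p = 0.000144), and NOS3, the endothelial nitric oxide synthase (1.60 ± 0.35, adjusted p = 0.00589), were higher in newborn ductus than in newborn aorta. A fit of only these groups ended the call of NOS3 (adjusted p = 0.0727). The summed linear signal of these 4, KDR, TEK, NOS3 and SELP, relative to the 75th percentile, was 2.07 to 2.99 in newborn ductus and 0.569 to 1.11 in newborn aorta. It was 0.773 to 1.37 in near-term ductus. NOS3 and SELP gave most of the sum in newborn ductus. KDR and TEK also had higher means in newborn ductus than in newborn aorta, without a call. SELP rose by 3.02 ± 0.38 from near-term to newborn ductus (adjusted p = 3.82e-05). Its difference between the vessels in this step was 2.61 ± 0.54 (adjusted p = 0.0323). That call ended under 4 alternatives, normexp and quantile normalisation among them, and without any 1 of 10 of the 16 arrays. On the dimmer SELP probe this difference was 2.12 ± 0.65 and not called (adjusted p = 0.261). The dimmer probe was called between the newborn vessels (2.53 ± 0.46) and from near-term to newborn ductus (3.21 ± 0.46). In the ductus NOS3 (0.96 ± 0.35), TEK (0.43 ± 0.47) and KDR (−0.62 ± 0.25) were not called in that step, and KDR lay on the other side of 0.

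Of 2 macrophage markers found among 6, the costimulatory receptor CD86 was higher in newborn ductus (1.38 ± 0.34, adjusted p = 0.0138), and its dimmer probe was not called. The CD86 call ended with normexp (0.74), in a fit of only these groups (adjusted p = 0.0772) and without newborn ductus replicate 1 (1.24, adjusted p = 0.0526). The summed signal of CD14 and CD86 was 1.10 to 1.42 there, against 0.569 to 1.20 in newborn aorta and 0.375 to 0.539 in near-term ductus. Most of this sum came from CD14. CD14, the receptor for bacterial lipopolysaccharide, rose from near term to newborn in both vessels, by 1.51 ± 0.21 in the ductus (adjusted p = 8.09e-05) and 1.07 ± 0.21 in the aorta (adjusted p = 0.00456). In the aorta that call ended with normexp (0.54), median centring and a fit of only the 2 groups. CD14 was not called between the newborn vessels (0.49 ± 0.21, adjusted p = 0.130), nor CD86 from near-term to newborn ductus (0.72 ± 0.34, adjusted p = 0.146). The part of either cell type in the PTGS2 result was not tested.

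The remaining marker lists gave few calls, most of which did not hold with single arrays left out. Of 3 neutrophil markers found among 6, CATHL1B and BAC5 were lower in newborn ductus than in newborn aorta (adjusted p = 0.0310 and 0.0467). Both calls ended with normexp, with quantile normalisation and without any 1 of newborn aorta replicates 1, 2 and 4 or newborn ductus replicates 2, 3 and 4. Of 4 mast cell markers found among 5, the tryptase gene TPSB2 fell by 2.14 on the log2 scale from near-term to newborn ductus (adjusted p = 3.77e-05). The other marker calls were FCER1A, lower in that step, TPSB2, higher in ductus than aorta near term and lower in newborn than near-term aorta, and CNN1, higher, and KDR, lower, in that aortic step. Each of these 5 ended under at least 3 alternatives. Of 3 lymphocyte markers among 6 and of the 1 erythroid marker among 5, 0 were called by limma in the 9 comparisons. Of 4 platelet markers, a cell type that holds PTGS1, 0 were found by name.

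PTGS1, the constitutive cyclooxygenase, was well above background on every array and was higher in ductus than aorta in newborns. Preterm ductus read 2.62, 2.19, 2.88 and 3.09, and preterm aorta 2.32, 2.13, 2.61 and 2.97. Near-term ductus read 2.07, 2.35, 2.02 and 2.02, and near-term aorta 1.44, 1.34, 1.65 and 1.55. Newborn ductus read 2.22, 1.99, 2.66 and 2.55, and newborn aorta 1.20, 1.49, 1.68 and 1.55. The vessels overlapped at the preterm stage, and at the other 2 stages all ductus arrays lay above all aorta arrays.

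In the aorta PTGS1 fell by 1.01 between preterm and near term (SE 0.21, 2.02-fold, adjusted p = 0.0279), with no overlap between the stages. This call did not hold with median centring (−1.19, adjusted p = 0.192), in a fit of only these 2 groups (−1.01, 0.148) or on the arrays with a detection limit not above 1.5 (−0.88, 0.363), where it is 1 array against 1 with the spread taken from the other groups. It also ended without preterm aorta replicate 1, 3 or 4 or without any 1 of the 4 near-term aorta arrays (adjusted p up to 0.103), with values between −1.14 and −0.86. In the ductus the same step was −0.58 ± 0.21 (interval −1.01 to −0.15, adjusted p = 0.288), and the ranges overlapped. The difference between the vessels in this change was 0.43 ± 0.29 (interval −0.18 to 1.04) and was not called (adjusted p = 1).

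In newborns PTGS1 exceeded the aortic level by 0.87 ± 0.21 in the ductus, or 1.83-fold with a 95% interval of 1.36 to 2.46 (adjusted p = 0.0103). A fit of only the 2 groups ended the call (0.87, adjusted p = 0.0730), as did leaving out the arrays with a detection limit above 1.5 (1.01, adjusted p = 0.0672). With each array left out it held, at 0.77 to 0.99. Near term the difference was 0.62 ± 0.21 (interval 0.19 to 1.05, adjusted p = 0.237). It was 0.19 ± 0.21 in preterm fetuses (interval −0.24 to 0.62). From near term to newborn PTGS1 differed by 0.24 ± 0.21 in the ductus (interval −0.19 to 0.67) and by −0.01 ± 0.21 in the aorta (interval −0.44 to 0.41), and the difference of these was 0.25 ± 0.29 (adjusted p = 0.88).

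The order of mean PTGS1 level was preterm ductus (2.70), preterm aorta (2.51), newborn ductus (2.35), near-term ductus (2.11), near-term aorta (1.496) and newborn aorta (1.48). Among neighbours, the ranges failed to overlap between near-term ductus and near-term aorta only. The summed signal of the fibroblast markers COL1A1, COL3A1 and DCN, 3 found of 5, was 40.4 to 59.0 in preterm aorta, 21.2 to 41.1 in near-term aorta and 13.9 to 31.2 in newborn aorta. It was 66.5 to 82.6, 50.9 to 78.7 and 43.9 to 69.4 in the ductus at these stages. The matrix proteoglycan DCN gave most of this sum. In newborns it was higher in ductus than in aorta (1.31 ± 0.25, adjusted p = 0.00265), a call that ended in a fit of only these groups (adjusted p = 0.0695). The collagen genes COL1A1 (−0.44 ± 0.31) and COL3A1 (−0.75 ± 0.49) lay on the other side of 0 there and were not called. The part of these markers in the PTGS1 result was not tested.

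PTGDS, a synthase of prostaglandin D2, was well above background on every array and was called in no comparison. Over the 24 arrays it ran from 4.15 to 5.89, and group means lay between 4.75 ± 0.55 (newborn aorta, SD) and 5.54 ± 0.30 (near-term ductus, SD). Newborn ductus arrays read 5.18, 5.50, 4.72 and 4.82, and newborn aorta arrays 5.17, 5.27, 4.42 and 4.15, so the vessels overlapped. Their difference was 0.31 ± 0.30 (interval −0.33 to 0.94, adjusted p = 0.481). From near term to newborn PTGDS differed by −0.48 ± 0.30 in the ductus (interval −1.12 to 0.15) and by −0.56 ± 0.30 in the aorta (interval −1.19 to 0.08), intervals that still hold falls of over 1 on the log2 scale.

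**Figure D3:**
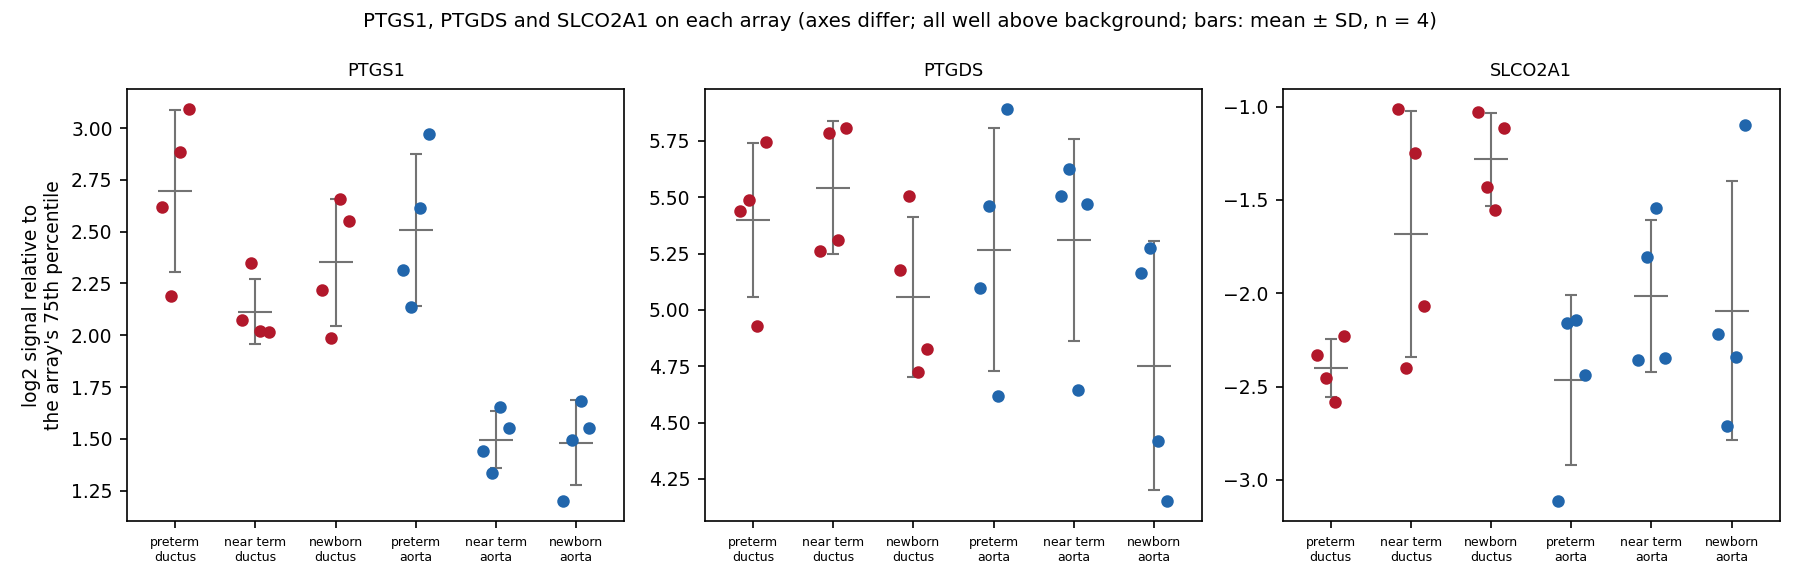
Log2 signal relative to the array's 75th percentile (y axes, which differ between panels) for PTGS1, PTGDS and SLCO2A1 in the 6 groups (x axis). Points are arrays and bars are mean ± SD (n = 4). For PTGS1 the near-term and newborn aorta arrays, at 1.20 to 1.68, lie below all ductus arrays, and for SLCO2A1 newborn aorta replicate 4 lies apart from the other newborn aorta arrays.

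SLCO2A1, the prostaglandin carrier, was measured by 5 spots on each array, 1 of them left out as an outlier on 1 array, with a median SD between spots of 0.15. Newborn ductus read −1.03, −1.43, −1.55 and −1.11, and newborn aorta −2.22, −2.71, −2.34 and −1.10. The vessels overlapped only through newborn aorta replicate 4. Near-term ductus read −1.01, −2.40, −1.25 and −2.07, and near-term aorta −2.36, −1.80, −1.54 and −2.35. Preterm ductus read −2.33, −2.46, −2.58 and −2.23, and preterm aorta −3.12, −2.16, −2.15 and −2.44.

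The newborn difference of SLCO2A1 was 0.81 ± 0.33 (interval 0.12 to 1.51, adjusted p = 0.124) and was not called. It was called without newborn aorta replicate 4 (1.14 ± 0.31, adjusted p = 0.0271), an array with a detection limit of 2.54. It was also called with quantile normalisation (0.80, adjusted p = 0.0228) and with median centring (0.99, 0.00558). A yes-or-no covariate for a limit above 1.5 gave a call too (1.16, 0.00725), as did the arrays not above 1.5 (1.19, 0.0265). Over all alternatives the adjusted p ran from 0.00558 to 0.193. From near term to newborn the ductus differed by 0.40 ± 0.33 (interval −0.29 to 1.10, adjusted p = 0.389), called with median centring only (0.71, 0.0355). From preterm to near term it differed by 0.72 ± 0.33 (interval 0.02 to 1.41, adjusted p = 0.430). In the aorta SLCO2A1 differed by −0.08 ± 0.33 from near term to newborn (interval −0.78 to 0.61). The aortic difference from preterm to near term was 0.45 ± 0.33 (interval −0.24 to 1.15).

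The 75th percentile scaling left the median of all probes at −0.28 for newborn ductus minus newborn aorta, at −0.31 for near-term to newborn ductus and at −0.24 for the aorta. It was −0.20 and −0.12 for preterm and near-term ductus minus aorta, and 0.22 and 0.13 for preterm to near-term ductus and aorta. Relative to these medians PTGS2 differed by 4.64, 3.96 and 0.47. PTGS1 differed by 1.15, 0.55 and 0.22 on this scale, and SLCO2A1 by 1.09, 0.71 and 0.16.

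The 5 receptor genes could be measured on some arrays only, and limma called none of their 8 tested probes in any comparison. Whether they were measured went with the detection limit of the array. More probes were marked well above background where the limit was higher, the reverse of what its name implies. The reason was not tested, so the marks on those arrays may not show better detection. On the 12 arrays with a detection limit above 1.5, 6 to 9 of the 9 dim member probes (these 8 and the second PTGS2 probe) were well above background, in 96 of 108 readings. On the other 12 arrays 0 to 3 were, in 19 of 108 readings. Of all spots, 81.8% to 94.4% were well above background on the arrays above 1.5 and 66.2% to 72.7% on the others. The split was thus not particular to these probes. The mean of the 9 probes ran from −5.15 to −3.04 on the former arrays and from −6.68 to −5.49 on the latter, without overlap.

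**Figure D4:**
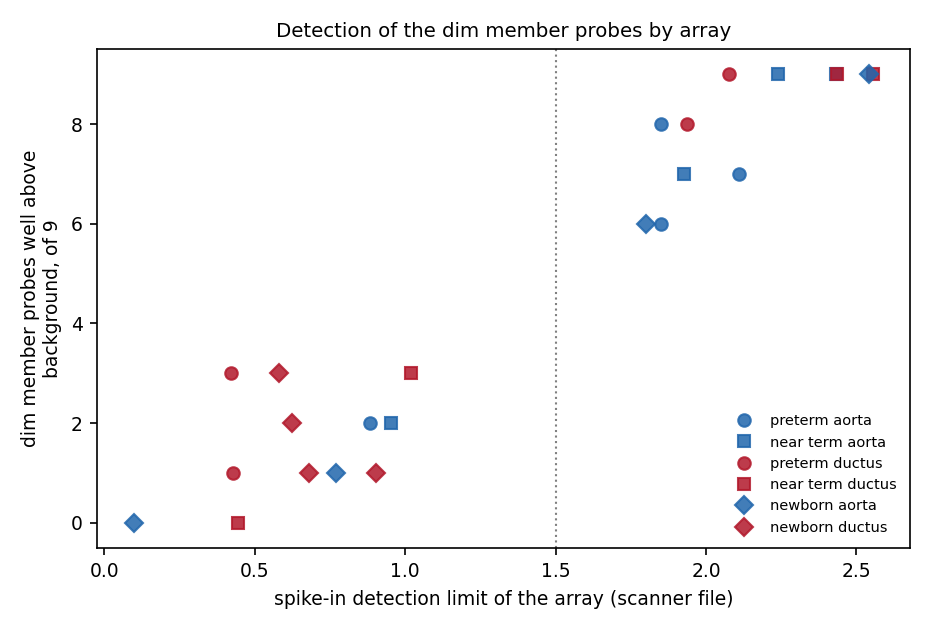
Number of the 9 dim member probes that were well above background on an array (y axis) against that array's spike-in detection limit (x axis, no unit stated). Each point is 1 of 24 arrays, coloured by vessel and shaped by stage, some points lie on others, and the dotted line marks 1.5. Arrays left of the line measured 0 to 3 of the probes and arrays right of it 6 to 9, and all newborn ductus arrays lie on the left.

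Of the receptors that raise cyclic AMP, PTGER2 (A_70_P031651) was well above background on 12 of the 12 arrays with a limit above 1.5 and on 0 of the other 12, at mean levels of −3.28 and −7.24. Newborn ductus read −6.55, −7.99, −7.62 and −7.49, all not well above background. Newborn aorta read −7.18, −7.56, −3.79 and −2.08, of which replicates 3 and 4 were measured. The vessels overlapped through newborn aorta replicates 1 and 2. The fitted difference was −2.26 ± 1.35 (interval −5.09 to 0.57, adjusted p = 0.254), and over the alternatives it ran up to −0.04. The means of these arrays differed by at least 1.41-fold. An "at least" fold sets the mean of the brighter group against, for each dim array, the higher of the probe's own signal and the lowest signal there that was well above background. It describes means over all arrays of the brighter group, readings not well above background included. It takes no account of the spread between arrays and is no bound on a difference between the vessels.

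PTGER4, through which prostaglandin E2 relaxes the ductus, was well above background on 14 arrays with its brighter probe (A_70_P041081). Newborn ductus read −7.08, −5.95, −6.36 and −6.76, on 0 of 4 arrays above background. Newborn aorta read −6.47, −5.78, −4.15 and −1.15, with replicates 3 and 4 above background. Near-term ductus read −2.23, −5.16, −2.46 and −6.83, the pair with a high detection limit being the bright ones. In newborns the fitted difference was −2.15 ± 1.16 (interval −4.57 to 0.27, adjusted p = 0.217) and ran up to −0.42 over the alternatives, with array means at least 2.40-fold apart. From near-term to newborn ductus it was −2.37 ± 1.16 (interval −4.79 to 0.05, adjusted p = 0.153) and ran up to −0.55, with array means at least 2.78-fold apart. The second PTGER4 probe (A_70_P041082) gave −0.23 ± 0.92 and −1.18 ± 0.92 in these comparisons.

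PTGER1, the receptor that acts through calcium, ran from −7.92 to −3.22 on probe A_70_P041066 and from −7.71 to −3.82 on A_70_P041067, and both were well above background on 0 of 4 newborn ductus arrays. From near-term to newborn ductus the first differed by −1.65 ± 0.73 (interval −3.18 to −0.12, adjusted p = 0.131) and the second by −0.98 ± 0.78 (interval −2.60 to 0.64, adjusted p = 0.367), with array means at least 1.63-fold and 1.13-fold apart. Over the alternatives the first ran up to −0.16 and the second turned to 0.46. Without near-term ductus replicate 4 the first was called (−2.27, adjusted p = 0.0419).

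PTGER3, the receptor that lowers cyclic AMP, was well above background on 18 arrays with A_70_P041076 and on 11 with A_70_P041077. In newborn ductus the former was measured on 2 of 4 arrays and the latter on 1. Their newborn differences between the vessels were −0.54 ± 0.68 (interval −1.97 to 0.88) and 0.02 ± 0.87 (interval −1.80 to 1.83), neither called. PTGFR, the receptor for prostaglandin F2 alpha, was well above background on 17 arrays, 3 of them newborn ductus and 4 near-term aorta. Its newborn difference was −0.55 ± 0.73 (interval −2.07 to 0.98, adjusted p = 0.604).

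**Figure D5:**
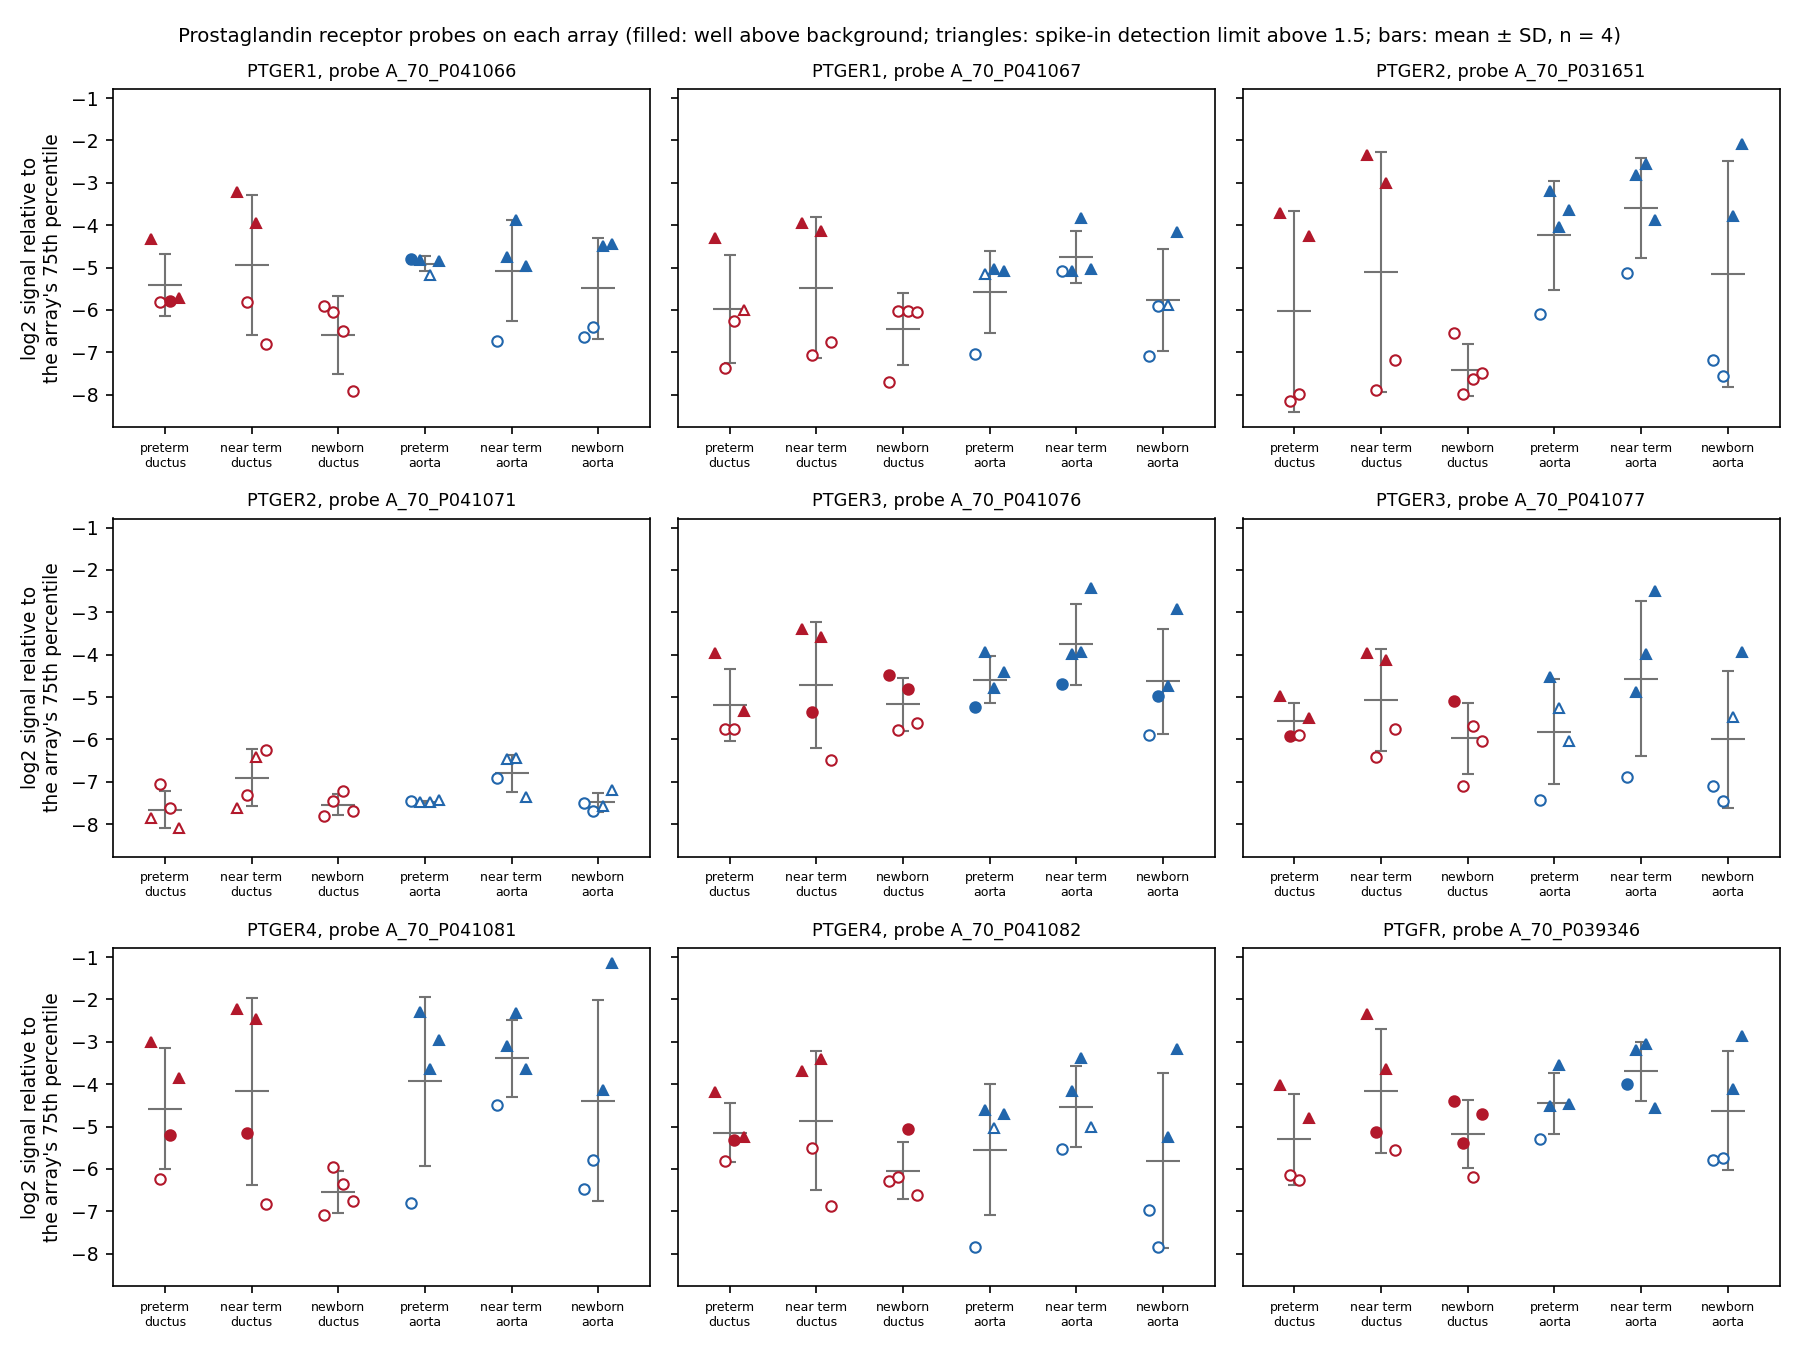
Log2 signal relative to the array's 75th percentile (y axis) for the 9 probes of the 5 receptor genes in the 6 groups (x axis). Points are arrays, filled where well above background and triangular where the spike-in detection limit was above 1.5, and bars are mean ± SD (n = 4). Newborn ductus holds no triangles. In the other groups filled triangles form the upper part for most probes, and for PTGER2 probe A_70_P041071 all 24 symbols are open.

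From near-term to newborn ductus all 9 dim probes lay below 0, with a median of −1.18. In newborn ductus minus newborn aorta 8 of 9 did, with a median of −0.70. The medians of all tested probes in these comparisons were also below 0, at −0.31 and −0.28. With a yes-or-no covariate for a detection limit above 1.5, 7 and 4 of 9 dim probes lay below 0, with medians of −0.17 and 0.17. On the arrays with a limit not above 1.5, 3 and 4 of 9 did, with medians of 0.13 and 0.05. Over the 12 arrays with such a limit 19 of 108 readings of these probes were well above background. These medians therefore cannot show whether a change remained. With normexp background correction, which started from the mean and background signals in place of the processed signal, 7 dim probes were called lower in newborn than near-term ductus, by 1.10 to 1.52 on the log2 scale (adjusted p = 0.0125 to 0.0469). They were 1 probe each of PTGS2, PTGER1, PTGER2, PTGER3 and PTGFR and both of PTGER4. There 8 of 13 member probes were called, and normexp called 38.7% of all probes in that comparison, 693 higher and 4719 lower.

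Few other genes of the pathway could be followed, because 13849 of the 15008 probes carried no name that could be used here. Of 26 other prostanoid genes (further synthases, phospholipases, the prostacyclin and thromboxane receptors, degrading enzymes) and of 9 leukotriene and lipoxygenase genes, 0 were found by name. Of 34 genes of cyclic AMP signalling, the route below PTGER2 and PTGER4, CREM and PRKACA were found.

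CREM, a transcription factor gene whose short form is induced by cyclic AMP, read −0.34 to −0.03 in newborn ductus and −1.44 to −1.15 in newborn aorta, without overlap. It was 1.14 ± 0.15 higher in the ductus (adjusted p = 5.83e-05). It rose by 0.78 ± 0.15 from near-term to newborn ductus (adjusted p = 0.00188), a call lost on the arrays with a limit not above 1.5 (0.77, 0.0701). It was also higher in ductus than aorta near term (0.66 ± 0.15, adjusted p = 0.0282), a call lost under 5 of 10 alternatives and without any 1 of replicates 2, 3 and 4 of either vessel. These values are of the brightest of 4 CREM probes. Of the others, A_70_P012576 was called in the same direction in the newborn vessels (0.80 ± 0.20, adjusted p = 0.0142). That probe rose at birth in both vessels, by 0.76 ± 0.20 in the ductus (adjusted p = 0.0183) and 0.76 ± 0.20 in the aorta (adjusted p = 0.0274), where the brightest probe read 0.29 ± 0.15 (adjusted p = 0.279). The difference between the vessels in this step was called for neither (adjusted p = 0.995 and 0.569). In newborn ductus minus aorta the remaining pair read −1.24 ± 0.92 and −1.18 ± 0.88 without a call.

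PRKACA, a catalytic subunit of the kinase that cyclic AMP activates, differed by −1.20 ± 0.55 in newborn ductus against aorta (adjusted p = 0.162) and was called nowhere. Of 17 genes of calcium and potassium channels and contraction, the route below PTGER1 and PTGFR, MYLK and PPP1R12A were found, and neither was called. MYLK, the kinase of the myosin light chain, differed by 1.87 ± 0.57 from preterm to near-term ductus (adjusted p = 0.192). PPP1R12A, a subunit of the myosin phosphatase, differed by 0.90 ± 0.49 in that step (adjusted p = 0.493). The medians of these pairs were −0.03 and −0.14 for newborn ductus minus aorta, where all probes had −0.28.

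Among 601 other named genes the pattern most like that of PTGS2 over the 24 arrays was that of TIMP1 (r = 0.933), an inhibitor of matrix proteases, then IL6 (0.929), an inflammatory cytokine, MCL1 (0.912), a survival factor of the BCL2 family, ANXA2 (0.907), a calcium-dependent membrane binding protein, and SLC2A3 (0.888), the glucose transporter GLUT3. The 4 newborn ductus arrays stand apart in PTGS2, and without them the same correlations over 20 arrays were 0.355, 0.264, 0.457, 0.760 and 0.340. For PTGS1 the most alike were DCN (r = 0.709), the binding protein gene IGFBP2 (0.701), RPN2 (0.654), the ferritin gene FTH1 (0.610) and the DNA methyltransferase gene DNMT1 (0.593). These correlations describe arrays that share scanning, scaling and slides.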

How the data were processed

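Total RNA of 24 vessel samples was amplified, labelled with Cy3 and hybridised to 1-colour Agilent arrays, per the labels' protocols. The deposited value used here is each spot's linear intensity after background subtraction (its processed signal), made with Agilent Feature Extraction 9.5.3.1, per the file headers. No later normalisation by the authors is given in the sources used here. Groups came from the labels.

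Here control spots and spots marked as outliers were left out, log2 signal was set relative to the array's 75th percentile, and spots of a probe were averaged. Of 15008 probes, 13997 were well above background on at least 4 arrays and entered a limma fit (limma 3.58.1, R 4.3.3) that gave 9 comparisons, adjusted by Benjamini-Hochberg within each. The script was tested on simulated data with independent noise on each probe and array. Those data did not hold the split of arrays by detection limit. The series' design text gives 4 animals per group.

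Symbols came from the array's names and from RefSeq names (ARS-UI_Ramb_v3.0), for 1159 probes, 12 of them assigned by hand from the annotation text. A gene outside the members is represented by its brightest probe. Probes named EP4 with a letter (8) were not counted as PTGER4, since their annotation names no prostaglandin receptor. Every member probe is reported; from the pathway lists, genes called in at least 1 comparison and at most 3 others per list; and the 5 named genes most correlated with PTGS2 and with PTGS1. Marker genes are named where they stand beside a result. The 9 lists of cell markers and 4 lists of pathway genes and the members were chosen with earlier results of these data known. Sequences of probes, promoters and proteins were not used here, so no motif search was made. Figures were drawn with matplotlib 3.10.9.

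Alternatives were normexp (offset 50), quantile normalisation, median centring, no filter on dim probes, a filter at 12 arrays and outlier spots kept. Further ones were only the groups compared, a yes-or-no covariate for a limit above 1.5 and only arrays with a limit not above 1.5. The last were the replicate number as a block and each array left out.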

Additional observations from a re-analysis of the deposited data

Results flagged for a closer look

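The rise of PTGS2 (A_70_P039256) from near term to newborn was larger in the ductus than in the aorta by 3.42 on the log2 scale, the 1 member probe for which such a difference between the vessels was called.

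Among 78 sets of 4 arrays (13 probes in 6 groups), 1 array stood apart from its 3 neighbours by Dixon's ratio in 8, where chance gives about 3.9. For PTGS2 (A_70_P039256) near-term ductus replicate 3 read −2.25 against −1.59 to −1.50. For PTGDS near-term aorta replicate 3 read 4.65 against 5.47 to 5.63. Both arrays had a detection limit above 1.5, at 2.44 and 2.43. The other 6 were dim receptor readings. For PTGER1 on A_70_P041066 they were preterm ductus replicate 1 at −4.32 (others −5.81 to −5.71) and preterm aorta replicate 3 at −5.17 (others −4.85 to −4.79). For PTGER1 on A_70_P041067 they were newborn ductus replicate 1 at −7.71 (others −6.05 to −6.01), preterm aorta replicate 1 at −7.04 (others −5.16 to −5.04) and near-term aorta replicate 3 at −3.82 (others −5.07 to −5.04). For PTGER4 on A_70_P041082 preterm aorta replicate 1 read −7.85 (others −5.03 to −4.61). Of these 6 readings, 2 were well above background, those of preterm ductus replicate 1 and near-term aorta replicate 3. The PTGER1 and PTGER4 readings of preterm aorta replicate 1 share the only array of that group with a limit not above 1.5 (0.884).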

How the results depend on the processing

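Of 98 refits of the 5 called member results 85 kept their direction and call, and all 98 kept their direction. PTGS2 was called throughout in newborn ductus against aorta and from near-term to newborn ductus, and its difference between the vessels failed with quantile normalisation only (3.25, 0 members called). PTGS1 in newborns failed with only the groups compared (0.87) and on the arrays with a limit not above 1.5 (1.01). The former left 1 member called there; the latter left 2, PTGS2 and SLCO2A1. PTGS1 in the aorta from preterm to near term failed with median centring (−1.19), only the groups compared (−1.01) and a limit not above 1.5 (−0.88, 1 array against 1), each with 0 members called, and with arrays left out ran from −1.14 to −0.86 with 0 or 1 called. In near-term to newborn ductus 8 members were called with normexp, 2 with median centring and 1 or 2 with arrays left out. On arrays with a limit not above 1.5, PTGER2 (A_70_P031651) differed by −2.41 between near-term vessels and by −2.24 from near-term to newborn aorta. Near-term aorta replicate 1 was the only aortic near-term array there. The probe was well above background on 0 of the 12 arrays with such a limit, so neither value is a measured difference. The labels give same-numbered arrays no shared animal; those of 1 stage also share the slide row, so number and row cannot be told apart (correlations of their deviations −0.662 to 0.82; 0 of 7 comparisons had all 4 above 0.1; 15 of 28 pairs correlated best with their own number). With the replicate block 1 member was called in near-term vessels, PTGS1 (0.62, adjusted p = 0.0476), and the other member counts did not change. A slide block was not run, because each stage lies on 1 slide. Calls over all probes ranged widely, from 371 to 2005 for newborn vessels, from 614 to 5412 for near-term to newborn ductus, from 0 to 1498 for the aorta in that step, from 33 to 378 for preterm vessels, from 40 to 944 for near-term vessels, from 0 to 148 for preterm to near-term ductus, from 12 to 287 for the aorta in that step, from 0 to 13 and from 33 to 153 for the 2 differences between the vessels. The causes were not tested.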
